A study of Mus musculus with 8 samples.

Results

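The tripartite motif (TRIM) genes were followed in mouse CD8+ T cells cultured with or without DADA (diisopropylamine dichloroacetate, an inhibitor of pyruvate dehydrogenase kinase). They were taken as every row whose symbol is Trim followed by a number and, where present, a letter from a to e, which gave 68 of the 22520 rows. Of these, 33 were expressed, meaning that they reached 1 FPKM (fragments per kilobase of transcript, scaled to the library's mapped fragments) in at least 4 of the 8 libraries. The same filter was passed by 10666 rows of the whole table. Splenic CD8+ T cells were kept under stimulation with antibodies to CD3 and CD28 plus IL-2 for 6 days, a culture used to drive them toward exhaustion. DADA at 40 µM, or the same volume of its solvent DMSO, was present from day 3, and RNA was taken on day 6. There were 4 DMSO libraries and 4 DADA libraries, numbered here as in their titles. The submitters call them biological replicates without saying whether each came from a separate mouse, so p-values measure the spread between these cultures. The labels give the genotype as "control" for the DMSO libraries and "model" for the DADA libraries and name no altered gene, and they give no strain, sex or age for these cells.

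TRIM proteins share a RING finger, B-box zinc fingers and a coiled coil, and most of them act as E3 ubiquitin ligases, which pass ubiquitin from an E2 enzyme to a target. The domain that follows decides what is bound: a PRY-SPRY domain in the largest class, a PHD finger with a bromodomain in chromatin cofactors, or NHL repeats, a COS box, a membrane anchor and others. Many PRY-SPRY members are induced by interferons, restrict viruses or tune the sensing of foreign RNA and DNA, and in the mouse the Trim5, Trim12, Trim30 and Trim34 genes form a cluster on chromosome 7.

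In the DADA libraries 15 of the 33 expressed TRIM genes were higher and 5 were lower, and 13 did not pass the test (limma on log2(FPKM + 1), Benjamini-Hochberg adjusted p under 0.05 over all genes tested). The share called in either direction was 60.6%, beside 66.2% of all genes tested. By direction, 45.5% of the expressed TRIM genes were called higher, beside 30.9% of all genes, and 15.2% were called lower, beside 35.3%. A rise of at least 0.5 on the log2 scale was called for 12 of them (36.4%, beside 9.87% of all genes), and a fall of that size for 0, beside 5.86%. Trim7 and Trim16, counted among the 15 and the 12, met the filter only through the DADA libraries, so their place in these counts is no support. The rise was at least 1 for Trim30d, Trim30a, Trim25, Trim12c and Trim34a, which are 5 genes or 15.2%, beside 3.56% of all genes. The median log2 fold change was 0.16 over the expressed TRIM genes and -0.02 over all genes tested. The 2 groups of libraries did not overlap for 20 of the 33 genes, and this share of 60.6% was the same over all genes tested.

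**Figure D1:**
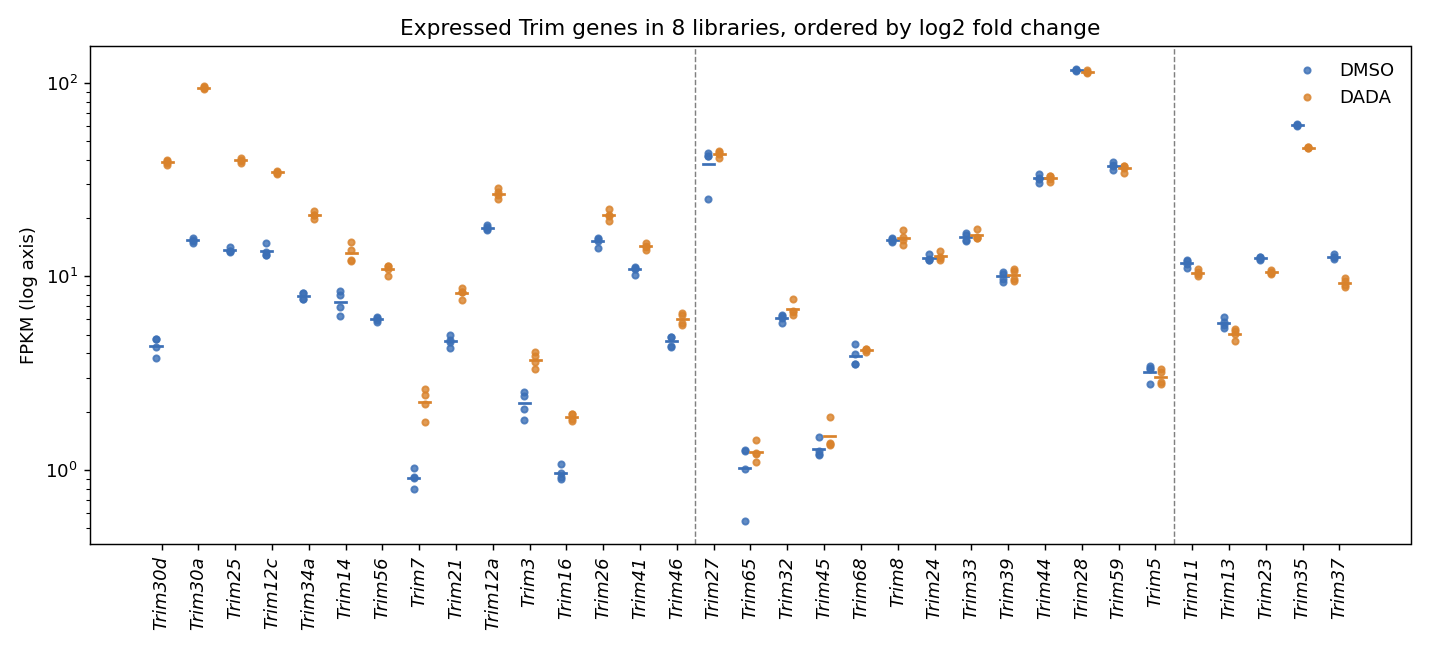
FPKM (log axis) of the 33 expressed TRIM genes in each library, with 4 DMSO points (blue) and 4 DADA points (orange) per gene and a bar at each group mean. Genes run from the highest to the lowest log2 fold change within 3 blocks set apart by dashed lines: the 15 called higher, the 13 not past the threshold and the 5 called lower. Trim30d and Trim30a show the widest separation between the groups.

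The libraries carried the transcripts that define CD8+ T cells. All 8 T cell markers, among them Cd3e, Cd8a and Cd8b1, were above 1 FPKM in every library and summed to 1108 to 1144 FPKM with DMSO and 1333 to 1370 FPKM with DADA. The shift was not uniform: the mean of Cd2 rose most, from 170 to 287 FPKM, and that of Cd5 fell from 84.5 to 66.3 FPKM. The means of the other markers on this list were higher with DADA. The 8 myeloid markers summed to 4.57 to 6.23 FPKM with DMSO and 7.01 to 8.08 FPKM with DADA, mostly as Cd68 and Fcer1g, and Csf1r and Adgre1 were listed at 0 throughout. Of 6 B cell markers, Pax5 and Blnk were listed at 0 in every library, and the sums were 2.59 to 3.54 FPKM with DMSO and 2.36 to 3.09 FPKM with DADA. The 4 NK cell markers summed to 13.3 to 14.2 FPKM with DMSO and 10.1 to 11.2 FPKM with DADA, nearly all of it Eomes, which CD8+ T cells also express. The 4 CD4 T cell markers, nearly all Zbtb7b, stood at 16.3 to 17.4 and 15.3 to 15.8 FPKM, and the 5 erythroid markers at no more than 0.426 FPKM. The part of these shifts in the results below was not tested. In bulk RNA, fewer cells of a type and less RNA per cell cannot be told apart.

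Of the 6 expressed genes of the chromosome 7 cluster, 5 were higher with DADA (beside 30.9% of all genes tested), 0 were lower (beside 35.3%), and Trim5 did not pass the test. Their median log2 fold change was 1.29, beside -0.02 over all genes tested. The summed FPKM of all 10 cluster genes in the table was 63.1 with DMSO and 220.5 with DADA. Stretches of their promoters are shown because most of the matches to the interferon-stimulated response element (ISRE) among TRIM promoters lie in them. The ISRE is a DNA site bound by transcription factors that interferons activate. Each stretch runs 5′ to 3′ on the gene's strand from 100 bases before the annotated transcript start to 50 after it (RefSeq, build GRCm38.p6), with matches to its core (GAAA, any 2 bases, GAAA) on either strand in capitals. Trim30a has a second annotated start, not shown, which also holds a match. Trim21, a PRY-SPRY gene outside the cluster, is added because its 2 matches overlap.
Trim30a (chr7:104465144-104465293, minus strand): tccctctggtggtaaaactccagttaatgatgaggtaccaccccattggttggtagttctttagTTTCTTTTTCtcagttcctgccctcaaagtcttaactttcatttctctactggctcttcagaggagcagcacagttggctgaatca
Trim30d (chr7:104507800-104507949, minus strand): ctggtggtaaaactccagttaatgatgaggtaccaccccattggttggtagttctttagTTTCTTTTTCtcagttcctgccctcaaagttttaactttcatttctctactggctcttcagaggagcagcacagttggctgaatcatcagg
Trim12c (chr7:104353300-104353449, minus strand): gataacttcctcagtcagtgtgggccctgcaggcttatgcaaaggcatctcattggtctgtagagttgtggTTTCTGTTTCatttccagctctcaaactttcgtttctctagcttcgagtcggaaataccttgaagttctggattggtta
Trim12a (chr7:104315446-104315595, minus strand): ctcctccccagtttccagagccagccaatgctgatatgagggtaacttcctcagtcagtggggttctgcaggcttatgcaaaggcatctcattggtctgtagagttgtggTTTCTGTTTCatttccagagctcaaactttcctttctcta
Trim5 (chr7:104288057-104288206, minus strand): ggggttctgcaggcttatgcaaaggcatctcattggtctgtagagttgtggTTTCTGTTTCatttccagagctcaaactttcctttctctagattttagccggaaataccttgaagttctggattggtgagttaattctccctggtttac
Trim34a (chr7:104244357-104244506, plus strand): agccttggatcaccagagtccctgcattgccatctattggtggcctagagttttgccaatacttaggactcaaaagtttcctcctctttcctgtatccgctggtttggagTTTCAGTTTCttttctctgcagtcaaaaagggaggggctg
Trim21 (chr7:102565433-102565582, minus strand): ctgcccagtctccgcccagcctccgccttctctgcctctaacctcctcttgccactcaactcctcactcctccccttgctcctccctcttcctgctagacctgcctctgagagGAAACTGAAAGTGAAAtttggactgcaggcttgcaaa

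The Trim30a and Trim30d promoters were nearly the same sequence, with 276 of 295 aligned bases identical (93.6%), and both hold the core upstream of the start, at -36 to -27 and -41 to -32. The Trim5 promoter was identical to that of Trim12a over all 241 bases that the 2 windows share once shifted by 59 bases, so that the same match lies at -49 to -40 of Trim5 and at 11 to 20 after the start of Trim12a. Trim12c was 72.3% identical to Trim12a over 260 aligned bases and has its match at -29 to -20. Trim34a has a match at 11 to 20 after its start, and Trim21 has matches at 14 to 23 and 20 to 29.

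Trim30a, an interferon-induced gene whose product is known to restrain NF-kB signalling after Toll-like receptor stimulation, was at 14.9, 15.3, 15.4 and 15.8 FPKM in DMSO 1 to 4 and at 93.7, 96.0, 92.9 and 94.6 FPKM in DADA 1 to 4 (ENSMUSG00000030921). Every DADA library lay far above every DMSO library, and the spread within each group was small. The group means were 15.3 ± 0.358 and 94.3 ± 1.33 FPKM (SD, n = 4 each), a ratio of 6.15 and a log2 fold change of 2.54 (SE 0.0252, limma adjusted p = 2.68e-12). The exact permutation test gave p = 0.0286, the smallest value that 4 against 4 libraries allow, as it did for each of the 20 TRIM genes called.

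Its neighbour Trim30d was at 3.80, 4.29, 4.73 and 4.72 FPKM in DMSO 1 to 4 and at 38.6, 37.7, 39.6 and 39.8 FPKM with DADA (ENSMUSG00000057596). The groups were again far apart, with a ratio of 8.88 and a log2 fold change of 2.89 (SE 0.0562, limma adjusted p = 7.54e-11), which ranked 28 from the top of the 10666 genes tested, and Trim30a ranked 46. The difference log2(Trim30d + 1) minus log2(Trim30a + 1), a pair chosen after the values were seen, was -1.60 ± 0.0925 with DMSO and -1.25 ± 0.0505 with DADA (SD, n = 4 each; exact permutation p = 0.0286). Because of that choice, the p-value is only a description. The transcripts of Trim30a and Trim30d share 4.41% and 4.57% of their 100-base windows with each other, so some fragments could have been assigned to either gene.

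Trim12c and Trim34a, PRY-SPRY genes of the same cluster, rose by close amounts. Trim12c was at 12.9, 12.9, 14.8 and 13.4 FPKM in DMSO 1 to 4 and at 35.2, 33.8, 34.3 and 34.6 FPKM with DADA, with no overlap (ENSMUSG00000057143; ratio 2.55, log2 fold change 1.29, SE 0.0426, limma adjusted p = 3.04e-09). Trim34a was at 7.66, 8.21, 7.65 and 8.16 FPKM in DMSO 1 to 4 and at 20.7, 20.7, 21.8 and 19.8 FPKM with DADA, also without overlap (ENSMUSG00000056144; ratio 2.62, log2 fold change 1.29, SE 0.0400, limma adjusted p = 2.05e-09). Of the Trim34a windows, 21.0% occur in Trim34b, which was far lower at 0.559 and 0.986 FPKM, and 18.0% lie opposite Gm47248 on the other strand.

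Trim12a and Trim5 differed although their promoters hold the same stretch. Trim12a was at 17.9, 17.4, 18.3 and 17.6 FPKM in DMSO 1 to 4 and at 27.4, 24.9, 28.4 and 26.4 FPKM with DADA, every DADA library being higher (ENSMUSG00000066258; ratio 1.50, log2 fold change 0.56, SE 0.0403, limma adjusted p = 9.24e-07). Trim5, the gene named for retrovirus restriction in primates, was at 3.42, 2.77, 3.36 and 3.32 FPKM in DMSO 1 to 4 and at 3.20, 2.84, 3.31 and 2.76 FPKM with DADA. Its groups overlapped, and the log2 fold change of -0.065 had a 95% interval from -0.22 to 0.093 (limma adjusted p = 0.438). The difference log2(Trim12a + 1) minus log2(Trim5 + 1), also a pair chosen after the values were seen, was 2.16 ± 0.0888 with DMSO and 2.79 ± 0.0518 with DADA (SD, n = 4 each; exact permutation p = 0.0286). Here too the p-value is only a description, since the same values led to the choice. Of the Trim5 windows, 6.64% also occur in Trim12c and 3.09% in Trim12a, and the table does not show how such fragments were assigned.

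Trim25 encodes an E3 ligase reported to attach ubiquitin chains to the viral RNA sensor RIG-I. It was at 13.6, 13.6, 14.2 and 13.4 FPKM in DMSO 1 to 4 and at 39.5, 40.1, 40.9 and 38.6 FPKM with DADA (ENSMUSG00000000275). The DADA libraries lay above the DMSO libraries by a ratio of 2.91 (log2 fold change 1.47, SE 0.0303, limma adjusted p = 1.05e-10). None of its 100-base windows occurs in another annotated transcript, and its promoter window holds no ISRE core.

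Several other TRIM genes rose by smaller amounts, and the roles given with them are background. Roles were not listed evenly over the family, so they do not divide the genes that rose from the others. Trim14, whose product lacks a RING finger and binds the mitochondrial adaptor MAVS, was at 8.01, 8.35, 6.95 and 6.24 FPKM in DMSO 1 to 4 and at 13.8, 12.1, 15.1 and 12.2 FPKM with DADA (ENSMUSG00000039853; log2 fold change 0.77, SE 0.0927, limma adjusted p = 4.28e-05). The groups did not overlap, though this gene varied more between replicates than the others named so far. Of its windows, 27.7% lie opposite the gene Nans, whose mean was 44.2 FPKM in the DMSO group and 44.1 in the DADA group (log2 fold change -0.0021, limma adjusted p = 0.957), and the counting's strand setting is not given in the sources used here. Trim56, an E3 ligase of STING and Toll-like receptor 3 signalling, was at 5.96, 6.08, 6.14 and 5.83 FPKM in DMSO 1 to 4 and at 11.2, 10.1, 11.4 and 10.9 FPKM with DADA (ENSMUSG00000043279; log2 fold change 0.76, SE 0.0443, limma adjusted p = 1.98e-07). Trim21, the cytosolic antibody receptor, was at 4.71, 5.01, 4.60 and 4.25 FPKM in DMSO 1 to 4 and at 8.30, 8.32, 8.76 and 7.57 FPKM with DADA (ENSMUSG00000030966; log2 fold change 0.71, SE 0.0560, limma adjusted p = 1.84e-06). For both genes the lowest DADA value exceeded the highest DMSO value. Trim26 and Trim41, PRY-SPRY ligases tied to antiviral responses, rose by 0.42 and 0.37 on the log2 scale (limma adjusted p = 2.53e-05 and 2.34e-05), from 15.2 ± 0.760 to 20.7 ± 1.15 FPKM and from 10.9 ± 0.454 to 14.3 ± 0.535 FPKM (SD, n = 4 each).

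A further 4 genes rose as well. Trim7, whose product binds the glycogen primer glycogenin, was at 0.798, 1.02, 0.916 and 0.909 FPKM in DMSO 1 to 4 and at 2.18, 1.77, 2.61 and 2.44 FPKM with DADA (ENSMUSG00000040350; log2 fold change 0.76, SE 0.0862, limma adjusted p = 2.71e-05). Trim16, which has no RING finger and acts in the autophagy of damaged lysosomes, was at 1.08, 0.922, 0.967 and 0.894 FPKM in DMSO 1 to 4 and at 1.80, 1.84, 1.95 and 1.93 FPKM with DADA (ENSMUSG00000047821; log2 fold change 0.55, SE 0.0570, limma adjusted p = 1.37e-05). Both lie near the filter, since they reached 1 FPKM in all 4 DADA libraries and 1 DMSO library, and the pseudocount of 1 FPKM understates their ratios of 2.47 and 1.95. They entered the test through the DADA libraries, where they were higher, so the filter favoured a difference in this direction. With a pseudocount of 0.1 the log2 fold changes were 1.21 for Trim7 and 0.90 for Trim16. Trim3, an NHL-repeat ligase, was at 2.06, 2.52, 1.82 and 2.42 FPKM in DMSO 1 to 4 and at 3.61, 4.05, 3.86 and 3.32 FPKM with DADA (ENSMUSG00000036989; log2 fold change 0.56, SE 0.0814, limma adjusted p = 0.000162). Trim46, a COS-box protein that bundles microtubules in axons, rose from 4.61 ± 0.290 to 6.04 ± 0.418 FPKM (SD, n = 4 each; log2 fold change 0.33, limma adjusted p = 0.000603), and 3.60% of its windows lie opposite Krtcap2. None of these 4 genes had groups that overlapped, and the same held for 60.6% of all genes tested. For Trim7 and Trim16 the filter favoured such a separation.

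**Figure D2:**
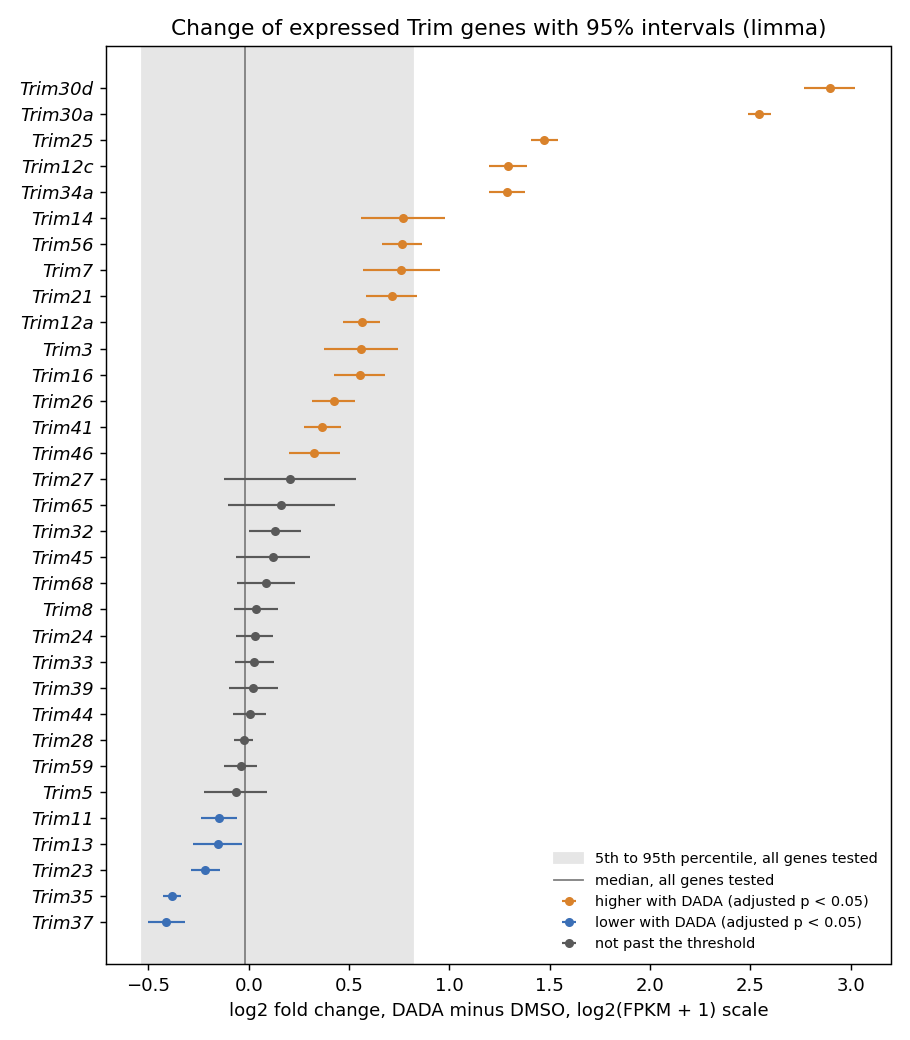
Log2 fold change (DADA minus DMSO, log2(FPKM + 1) scale) of each expressed TRIM gene with its 95% interval from limma, n = 4 libraries per group. The grey band spans the 5th to 95th percentile of all genes tested, -0.53 to 0.82, and the grey line is their median of -0.02. Trim30d, Trim30a, Trim25, Trim12c and Trim34a lie beyond the band, and no TRIM gene lies below it.

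By prior knowledge, 15 of the 68 genes were listed as interferon-inducible, of which 11 were expressed. Of these 11, 10 were higher (90.9%, beside 30.9% of all genes tested), 0 were lower (beside 35.3%) and Trim5 was not called, with a median log2 fold change of 0.77. Among the other 22 expressed genes, 5 were higher and 5 were lower (22.7% each, both under the shares over all genes) and 12 were not called, with a median of 0.033. The summed FPKM was 110.0 with DMSO and 313.3 with DADA for the listed genes, and 415.1 and 407.6 for the rest. The list was drawn up with earlier results of these data known, so its counts are a description.

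The 5 genes called lower changed by less than 0.5 on the log2 scale. Trim37, a ligase that limits centriole assembly and carries a MATH domain, was at 12.3, 13.1, 12.5 and 12.5 FPKM in DMSO 1 to 4 and at 8.98, 8.77, 9.46 and 9.77 FPKM with DADA (log2 fold change -0.41, limma adjusted p = 1.06e-05). Trim35, a PRY-SPRY ligase, was at 61.4, 60.1, 60.4 and 60.0 FPKM in DMSO 1 to 4 and at 46.1, 46.3, 46.1 and 46.4 FPKM with DADA (log2 fold change -0.38, limma adjusted p = 9.74e-08). In both genes the groups were apart, with DADA the lower, and the replicates of Trim35 were especially close. Trim23, which carries an ARF GTPase domain, fell from 12.4 ± 0.241 to 10.5 ± 0.233 FPKM (SD, n = 4 each; log2 fold change -0.22, limma adjusted p = 0.000198). Trim11, a PRY-SPRY ligase, fell from 11.7 ± 0.501 to 10.4 ± 0.332 FPKM (SD, n = 4 each; log2 fold change -0.15, limma adjusted p = 0.00818). Trim13, a ligase anchored in the endoplasmic reticulum membrane, fell from 5.74 ± 0.344 to 5.06 ± 0.300 FPKM (SD, n = 4 each; log2 fold change -0.15, limma adjusted p = 0.0288). The call for Trim13 was lost when DMSO 2, DMSO 4, DADA 3 or DADA 4 was left out (log2 fold change -0.15 to -0.12, adjusted p up to 0.0807).

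The PHD-bromodomain class had no called member among its 3 expressed genes, while 66.2% of all genes tested were called. Trim28 (KAP1), the corepressor that KRAB zinc finger proteins recruit to silence transposons, was the most abundant TRIM transcript, with a mean of 116 ± 1.52 FPKM in the DMSO group and 114 ± 1.62 in the DADA group (SD, n = 4 each; log2 fold change -0.025, 95% interval -0.071 to 0.020, limma adjusted p = 0.293). Its sign turned under other scalings, to 0.0063 after rescaling to equal totals (TPM) and 0.016 after quantile normalization. Trim24 was at 12.4 and 12.7 FPKM (log2 fold change 0.030, 95% interval -0.062 to 0.12), and Trim33, a regulator of Smad signalling, at 15.9 and 16.3 FPKM (log2 fold change 0.028, 95% interval -0.070 to 0.13).

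The other uncalled genes had overlapping groups. Trim27 (RFP) was at 41.8, 25.1, 42.0 and 43.1 FPKM in DMSO 1 to 4 and at 44.4, 42.6, 41.1 and 43.8 FPKM with DADA. DMSO 2 stood far below the other 7 libraries, and the log2 fold change of 0.20 (95% interval -0.12 to 0.53, limma adjusted p = 0.244) became 0.021 without it (adjusted p = 0.595). Trim59, a membrane-anchored member, was at 37.1 and 36.1 FPKM (log2 fold change -0.041, adjusted p = 0.344), and Trim44, which lacks a RING finger, at 32.1 and 32.2 FPKM (0.0049, adjusted p = 0.912). Trim8, an activator of cytokine signalling through STAT factors, was at 15.4 and 15.8 FPKM (0.037, adjusted p = 0.523), and Trim39 at 10.0 and 10.2 FPKM (0.024, adjusted p = 0.718). Trim32, an NHL-repeat ligase, was at 6.09 and 6.78 FPKM (0.13, adjusted p = 0.0672), and Trim68 at 3.88 and 4.17 FPKM (0.087, adjusted p = 0.260). Trim45, a filamin-domain member, was at 1.29 and 1.49 FPKM (0.12, adjusted p = 0.220), and Trim65, a ligase of the RNA sensor MDA5, at 1.02 and 1.24 FPKM (0.16, adjusted p = 0.254). Here the first value is the DMSO mean, the second the DADA mean and the value in brackets the log2 fold change from limma.

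Of the 35 TRIM genes that were not expressed by the filter, 15 were listed at 0 in all libraries: Trim10, Trim29, Trim31, Trim38, Trim40, Trim42, Trim43b, Trim52, Trim54, Trim58, Trim60, Trim61, Trim63, Trim75 and Trim80. Another 8 (Trim9, Trim15, Trim43a, Trim43c, Trim50, Trim55, Trim67 and Trim72) had a mean under 0.1 FPKM, and 12 a mean of at least 0.1 FPKM. Just outside the filter were Trim62, at 1 FPKM or more in 2 libraries, and Trim34b, Trim36 and Trim30c in 1, and just inside it were Trim7 and Trim16 in 5 and Trim65 in 7. In a fit with no filter, in which 48.7% of 16167 genes were called, Trim30c was listed at 0 in DMSO 1 and DMSO 4, at 0.0792 in DMSO 2 and 0.0584 in DMSO 3, and at 0.548, 1.03, 0.772 and 0.930 FPKM with DADA (limma adjusted p = 5.58e-05). This cluster gene was therefore higher in every DADA library, and with DMSO it was at the level of a few fragments, since 1 fragment on a transcript of 2 kb is worth about 0.0268 to 0.0366 FPKM. Also higher in that fit were Trim62 (0.624 to 1.00 FPKM), Trim34b (0.559 to 0.986), Trim36 (0.386 to 0.830), Trim69 (0.218 to 0.572) and Trim30b (0.0395 to 0.161), with limma adjusted p-values of 0.00763, 0.0127, 0.000972, 0.000758 and 0.000992. Of the Trim34b windows, 30.5% occur in Trim34a, which went from 7.92 to 20.8 FPKM. How such fragments were assigned is not shown, and their part in the Trim34b rise was not tested. Trim15, at a mean under 0.1 FPKM and so at the level of few fragments, was higher as well (0.0110 to 0.0824 FPKM, limma adjusted p = 0.0129). Trim66 (0.465 to 0.293 FPKM) and Trim71 (0.434 to 0.177) were lower, with adjusted p-values of 0.00079 and 0.000107. Trim47, Trim6, Trim2 and Trim17 did not pass the test, with adjusted p-values of 0.137, 0.101, 0.229 and 0.959.

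The TRIM genes together made up 525 ± 7.98 FPKM with DMSO and 721 ± 6.04 FPKM with DADA (SD, n = 4 each), or 0.113% to 0.117% and 0.159% to 0.165% of all FPKM. Without the 5 genes that rose by at least 1 on the log2 scale the sums were 470.2 ± 7.90 and 492.6 ± 6.09 FPKM, a ratio of 1.05 in place of 1.37. These 5 genes were picked by their rise in the same values, so a smaller ratio was bound to follow. Trim30a took 2.92% ± 0.0826 of the summed TRIM FPKM with DMSO, in place 9 by level, and 13.1% ± 0.289 with DADA, in place 2. Trim28 kept place 1 while its share went from 22.1% ± 0.356 to 15.8% ± 0.218, and Trim30d moved from place 26 to place 6. Trim25 moved from place 11 to 5 and Trim12c from 12 to 8.

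**Figure D3:**
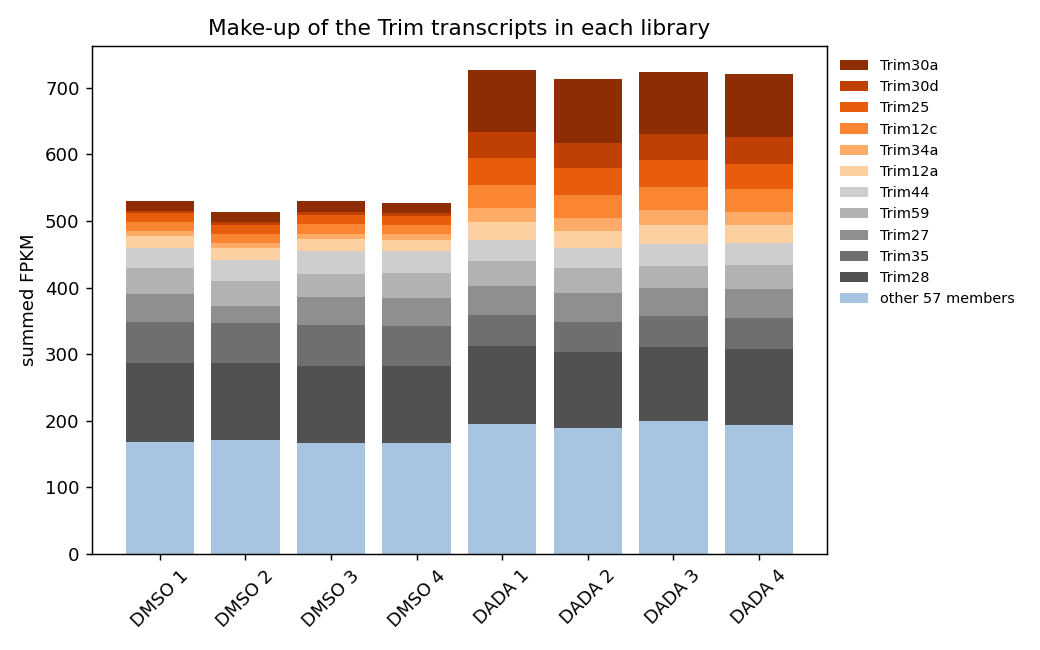
Summed FPKM of the 68 TRIM genes in each of the 8 libraries, as stacked bars from 0. Trim25 and the 5 cluster genes that rose are in orange, the 5 most abundant others in grey, and the remaining genes in blue. The orange segments are taller in all 4 DADA libraries, while the Trim28 segment is about as tall in both groups.

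Promoter entries were found for 25 of the 33 expressed genes, 12 of the 15 higher, 3 of the 5 lower and 10 of the 13 not called, and there were no entries for Trim3, Trim8, Trim11, Trim14, Trim16, Trim33, Trim35 and Trim65. The windows run from 250 bases before the start to 50 after it. The ISRE core was present in 8 of the 25: in 7 of the 12 higher (Trim30d, Trim30a, Trim12c, Trim34a, Trim21, Trim12a and Trim26), in 0 of the 3 lower and in 1 of the 10 not called, which was Trim5. In Trim26 there were 2 overlapping matches at -160 to -151 and -154 to -145. Over all RefSeq promoters, 3.44% of 32851 windows held the core, and 4.00% of the 8216 genes tested that have an entry. The gamma-activated site, searched as TTCNNNGAA, was found in Trim46 and Trim45 and in 8.36% of the genes tested. The cluster promoters of Trim30a and Trim30d are alike, as are those of Trim5, Trim12a and Trim12c, so the matches within each set are not independent. Other pairs of the cluster promoters shown were 29.4% to 36.6% identical at their best alignment, and whether their matches are independent was not tested. A match is only a run of letters.

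**Figure D4:**
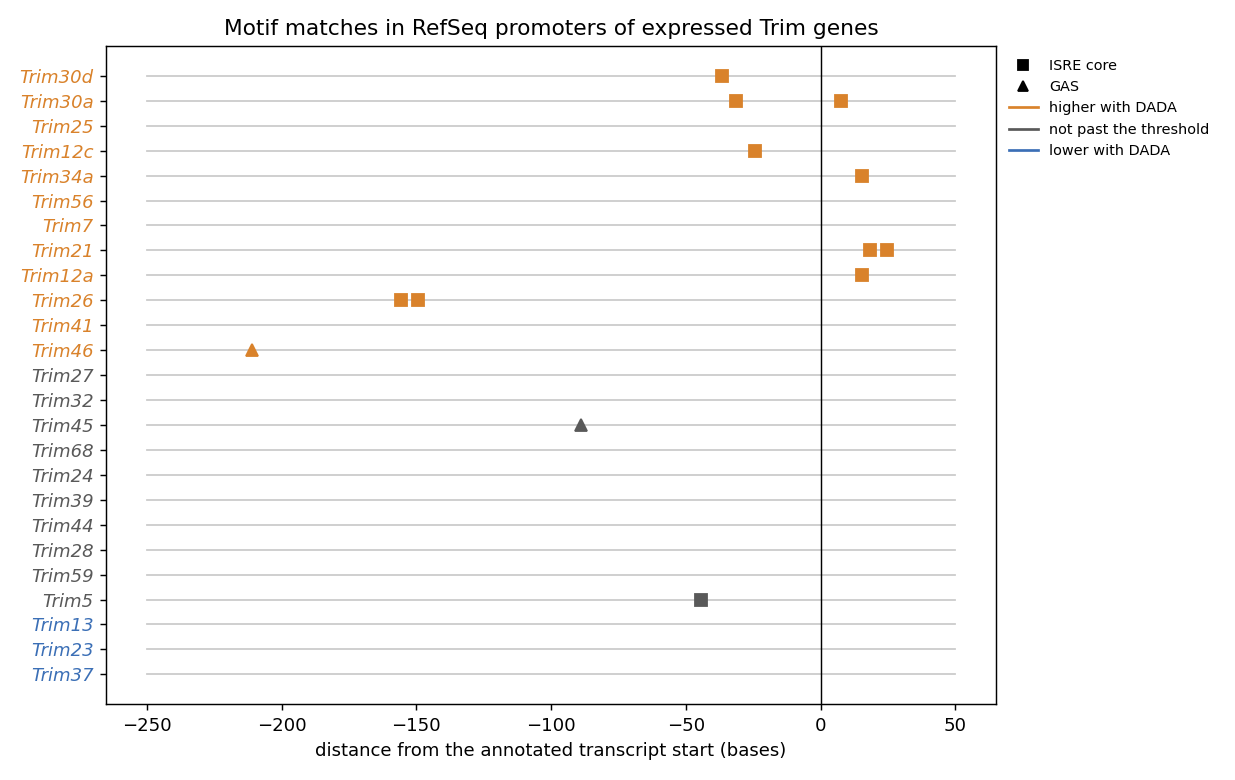
Matches to the ISRE core (squares) and the gamma-activated site (triangles) in the RefSeq promoters of the 25 expressed TRIM genes with an entry, by distance in bases from the annotated transcript start. Orange marks genes higher with DADA, blue genes lower and grey genes not past the threshold. The squares lie in 7 orange rows and the grey row of Trim5.

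TRIM proteins that carry other symbols and genes that TRIM proteins work with were taken from 5 lists, which hold 60 genes found among the rows, 58 of them expressed. Of these, 22 were higher (37.9%, beside 30.9% of all genes tested), 23 lower (39.7%, beside 35.3%) and 13 not called, and the median log2 fold change was -0.0034, beside -0.02 over all genes. Pml (TRIM19), which builds the nuclear bodies named after it, rose from 17.4 ± 0.367 to 47.5 ± 0.830 FPKM (SD, n = 4 each; log2 fold change 1.40, limma adjusted p = 5.90e-11). Mid1 (TRIM18) was at 1.12 and 1.09 FPKM (adjusted p = 0.858), and Mid2 and Mefv were below the filter.

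The 13 E2 enzymes that serve TRIM ligases had 3 members higher (23.1%), 5 lower (38.5%) and 5 not called, and the 61.5% called lay near the 66.2% of all genes. Ube2l6, the E2 of the ubiquitin-like modifier ISG15, went from 0.844 ± 0.158 to 4.99 ± 0.147 FPKM (SD, n = 4 each; log2 fold change 1.70, limma adjusted p = 1.38e-08). It was under 1 FPKM in all 4 DMSO libraries and entered the test only through the DADA libraries, so a difference between the groups was set by the filter and its count among the higher is no support. Ube2v1, a partner of the K63-chain enzyme Ube2n, rose by 0.32 on the log2 scale (adjusted p = 0.000108). Ube2w, which modifies protein N termini and primes TRIM5 ubiquitination, was lower by a log2 fold change of -0.55 (adjusted p = 1.39e-05), and Ube2v2 by -0.49 (adjusted p = 0.0183) with overlapping groups.

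Of 18 partners in RNA and DNA sensing, 8 were higher (44.4%, beside 30.9% of all genes), 6 lower (33.3%, beside 35.3%) and 4 not called. The sensors that TRIM25 and TRIM65 act on were among the higher: Rigi (RIG-I) rose from 4.57 ± 0.294 to 15.6 ± 0.141 FPKM (log2 fold change 1.57, limma adjusted p = 8.59e-10), and Ifih1 (MDA5) from 2.29 ± 0.193 to 11.1 ± 0.573 FPKM (log2 fold change 1.88, adjusted p = 1.41e-09; SD, n = 4 each). Lowest were Vcp, an ATPase that extracts ubiquitinated proteins, at -0.42 (adjusted p = 1.36e-06), and the kinase Ikbke at -0.40 (adjusted p = 1.50e-05). Also among the 6 lower, and named after their values were seen, were Rnf135 at -0.23 (adjusted p = 0.0253) and Mavs at -0.22 (adjusted p = 0.000663). Cgas was lower too, at -0.21 (adjusted p = 0.00592), so the sensing genes did not move as 1 block.

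The 11 partners of KAP1 had 2 members higher (18.2%, beside 30.9% of all genes), 8 lower (72.7%, beside 35.3%) and 1 not called, with a median log2 fold change of -0.17 beside -0.02 over all genes, while Trim28 itself did not pass the test. The heterochromatin proteins Cbx3 and Cbx1 fell most (log2 fold changes -0.39 and -0.26, limma adjusted p = 1.68e-06 and 7.35e-05). Atf7ip, a cofactor of the methyltransferase SETDB1, and Morc3 rose by 0.19 and 0.17 on the log2 scale (adjusted p = 0.00408 and 0.00076).

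Of 14 interferon signalling factors, 8 were higher (57.1%, beside 30.9% of all genes), 4 lower (28.6%, beside 35.3%) and 2 not called. Irf7, the transcription factor that amplifies type I interferon production, rose from 1.15 ± 0.0913 to 29.5 ± 0.433 FPKM (SD, n = 4 each; log2 fold change 3.83, limma adjusted p = 2.68e-12). Stat2 rose by 1.38 on the log2 scale (adjusted p = 7.74e-11), and its binding partner Irf9, named after its values were seen, rose by 1.25 (adjusted p = 5.22e-09). The receptor chain Ifnar1 and the factor Irf3 were lower, with log2 fold changes of -0.37 and -0.18 (adjusted p = 1.49e-06 and 0.00138).

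**Figure D5:**
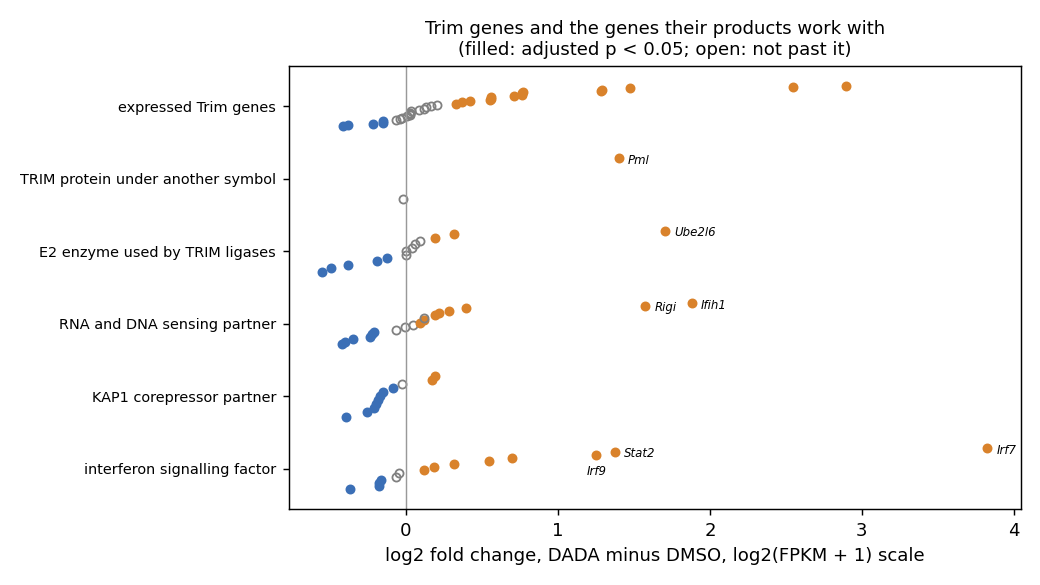
Log2 fold change (DADA minus DMSO, log2(FPKM + 1) scale) of the 33 expressed TRIM genes in the top row and of the 58 expressed genes of the 5 partner lists below, 1 point per gene. Filled points passed an adjusted p of 0.05 (limma), in orange where higher and blue where lower, and open points did not. Irf7 lies farthest to the right, at 3.83.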

How the data were processed

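Libraries were paired 150 bp mRNA libraries of 4 DMSO and 4 DADA cultures. The authors deposited 1 FPKM value per gene and library; per the labels their processing notes name CASAVA 1.8.2, FastQC 0.11.9, HISAT2 2.0.5, StringTie 1.3.3, Picard 1.41 and SAMtools 0.1.18 and the builds GRCh38 and GRCm39, without saying which step used which. The strand setting of the counting is not given in the sources used here, and the labels and the study's methods name different library kits. No coordinates were taken from the table. FPKM summed to 450473 to 456939 per DMSO library and 438299 to 449480 per DADA library. From the steps of low values, mapped fragments were estimated at 13660000 to 18660000 per library; only 41.6% to 47.2% of the low values lay within 0.1 of a whole fragment, where chance gives 20%, so no count test was run and the depth is approximate.

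Genes with at least 1 FPKM in at least 4 of 8 libraries were tested on log2(FPKM + 1) with limma 3.58.1 (R 4.3.3; lmFit, eBayes with trend, no covariates), with Benjamini-Hochberg adjustment over 10666 genes and a threshold of 0.05. Fold changes on this scale understate those of low genes. For single values, all 70 ways of assigning the libraries were enumerated in an exact two-sided permutation test. The fit was tested on simulated data of 10666 genes made for this comparison (DADA, DMSO), where 177 of 200 changed genes were recovered, with 1 false call, and 31 of the 50 smallest changes. The simulated share of changed genes was far below the 66.2% called in the data. Its recovery and number of false calls therefore do not carry over to these libraries. The TRIM genes and all lists were chosen with earlier results of these data known; no set test was run. TRIM genes called with an absolute log2 fold change of at least 0.5 were given per library. All other expressed genes were given by means or fold changes. Genes failing the filter were given by counts and, from a mean of 0.1 FPKM, by name. Partner lists were given by counts with the 2 largest changes in each direction. Some further partners were named after their values were seen. Shared sequence was counted as 100-base windows of GENCODE M21 transcripts (GRCm38), and motifs in the RefSeq promoters (GRCm38.p6), matched by symbol. Alternatives covered the pseudocount, filter, scaling, variance trend, a replicate block and leaving out each library. Deviations of same-numbered libraries correlated at -0.12 to 0.10, so numbers were not taken as pairs.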

Additional observations from a re-analysis of the deposited data

Results flagged for a closer look

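In 4 of 66 groups of 4 libraries (33 expressed TRIM genes in 2 groups), 1 library stood apart by Dixon's ratio of its gap to the range; chance gives about 1 in 20, or 3.3. Trim27 in DMSO had a ratio of 0.928, with DMSO 2 at 25.1 FPKM and the others at 41.8 to 43.1. Trim45 in DADA had a ratio of 0.946, with DADA 4 at 1.88 FPKM and the others at 1.35 to 1.38. Trim33 in DADA had a ratio of 0.850, with DADA 4 at 17.5 FPKM and the others at 15.8 to 16.0. Trim5 in DMSO had a ratio of 0.835, with DMSO 2 at 2.77 FPKM and the others at 3.32 to 3.42.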

How the results depend on the processing

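Over 16 alternatives, 19 of the 20 called TRIM genes passed the threshold in each one that tested them. Trim13 lost its call after rescaling to TPM (-0.13, adjusted p = 0.0625) and without DMSO 2, DMSO 4, DADA 3 or DADA 4 (adjusted p over its alternatives 0.00397 to 0.0807). Trim32 passed after rescaling to TPM (0.16, adjusted p = 0.0290) and without DADA 1 (0.16, adjusted p = 0.0401), and Trim68 without DMSO 1 (0.15, adjusted p = 0.0360). The median over the expressed TRIM genes, 0.16, was 0.21 with a pseudocount of 0.1 and 0.077 after quantile normalization, and 0.14 to 0.22 with 1 library left out. Signs turned only for uncalled genes: Trim28 (0.0063 after rescaling to TPM, 0.016 after quantile normalization), Trim65 (-0.062), Trim45 (-0.053), Trim68 (-0.029) and Trim39 (-0.0023), all 4 after quantile normalization, and with 1 library left out Trim44 (-0.020 to 0.027), Trim39 (-0.0058 to 0.056), Trim8 (-0.0056 to 0.073), Trim24 (-0.00027 to 0.051) and Trim33 (-0.0053 to 0.050). The causes were not tested. With 1 library left out, 15 to 16 were higher and 4 to 5 lower. With the replicate block 15 were higher and 5 lower, and 6995 of all genes were called in place of 7064; same-numbered libraries correlated at -0.12 to 0.10, and DMSO 1 correlated best with DADA 3 (0.11), so the block was not read as pairing. Other scalings moved the median of all genes to between -0.050 and 0.0088. At the estimated depth, genes under 1 FPKM rest on few fragments.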
